A study of Mus musculus with 4 samples.

Results

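The regions described are the Deaf1 ChIP-seq peaks at the ends of long genes that carried a peak at both ends. A gene was taken when it was protein-coding in RefSeq, lay on chromosomes 1 to 19 or X, spanned at least 10 kb, and had a peak summit within 1 kb of its lower-coordinate end and within 1 kb of its higher-coordinate end in each of the 2 replicate peak lists. This rule found 443 genes among 13887 long coding genes, out of 21627 coding genes on those chromosomes. Their 886 ends held 864 of the 65606 peaks of replicate 1 and 862 of the 26503 peaks of replicate 2, counting the peak with the highest summit at each end. These genes were chosen by the summits of both replicates, so their presence is not a finding, and the values below are a description with no test. At the background rate, 31.4% of long genes had a summit of both replicates at the lower end, 31.4% at the higher end and 3.19% at both.

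Chromatin of C2C12 cells, a mouse myoblast line that fuses into myotubes in culture, was immunoprecipitated with an antibody against Deaf1 in 2 samples, and 2 samples of input chromatin entered no comparison. Per the labels these were myocytes with no treatment named, while the series text speaks of myoblasts that had been differentiated. The labels name no genetic change, and all samples were fixed with formaldehyde and prepared with an enzymatic chromatin kit, and a control IgG is named in the protocol. The labels do not say whether the replicates were separate cultures, and the spread between them may then be technical. Peak lists hold no expression values, so the labelled cell type could not be checked against marker genes.

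Deaf1 is a transcription factor with a SAND domain that contacts DNA at motifs containing TTCG. Transcription of a coding gene begins at its start, where the promoter lies and where many sequence-specific factors bind, and ceases past its finish. Neighbouring genes can lie close enough that the finish of 1 gene sits beside the promoter of the next, and a peak there is then near both.

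Start and finish were told apart by the strand of RefSeq start windows, which was known for 357 of the 443 members and for 11035 long genes. The strand of the other 86 members was not known, and these are described by lower and higher end. Windows of 300 bases around RefSeq starts, from 250 bases before the start to 50 after it, follow for 3 members whose finish lay beside another gene's start, each with the neighbour's window after its own, and for Scarf2, which had the highest weaker end among members with no other coding gene end within 1 kb of either end. They are from GRCm38.p6 (mm10), read 5′ to 3′ on the gene's own strand, and capitals mark TTCG on either strand (TTCG or CGAA, which overlap in TTCGAA). The pairs were chosen after their values were seen.
Mtor start, plus strand, chr4:148448332-148448631: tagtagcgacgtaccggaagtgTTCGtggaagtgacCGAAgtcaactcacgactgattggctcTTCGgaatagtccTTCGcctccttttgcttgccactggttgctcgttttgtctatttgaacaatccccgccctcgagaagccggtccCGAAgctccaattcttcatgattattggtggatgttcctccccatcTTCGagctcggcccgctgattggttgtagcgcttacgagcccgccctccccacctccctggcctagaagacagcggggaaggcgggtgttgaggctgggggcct
Exosc10 start at the Mtor finish, plus strand, chr4:148558169-148558468: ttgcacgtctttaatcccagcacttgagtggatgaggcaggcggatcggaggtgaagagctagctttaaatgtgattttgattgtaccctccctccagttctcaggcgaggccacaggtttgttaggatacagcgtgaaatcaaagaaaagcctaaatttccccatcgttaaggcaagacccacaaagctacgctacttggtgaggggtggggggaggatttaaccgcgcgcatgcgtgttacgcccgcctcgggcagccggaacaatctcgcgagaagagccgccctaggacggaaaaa
Pigs start, plus strand, chr11:78328172-78328471: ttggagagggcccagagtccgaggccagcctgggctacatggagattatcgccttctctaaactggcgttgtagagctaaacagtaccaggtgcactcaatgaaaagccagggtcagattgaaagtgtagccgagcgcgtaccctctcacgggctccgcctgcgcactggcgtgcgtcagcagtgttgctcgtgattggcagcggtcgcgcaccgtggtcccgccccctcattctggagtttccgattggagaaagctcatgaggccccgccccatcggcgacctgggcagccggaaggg
Unc119 start at the Pigs finish, plus strand, chr11:78343245-78343544: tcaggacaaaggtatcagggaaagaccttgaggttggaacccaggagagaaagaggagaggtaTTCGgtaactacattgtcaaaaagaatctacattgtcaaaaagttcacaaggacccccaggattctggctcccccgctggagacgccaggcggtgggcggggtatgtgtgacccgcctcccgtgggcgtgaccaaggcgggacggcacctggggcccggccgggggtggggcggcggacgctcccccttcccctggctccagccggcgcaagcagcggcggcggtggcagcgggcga
Glyr1 start, minus strand, chr16:5049861-5050160: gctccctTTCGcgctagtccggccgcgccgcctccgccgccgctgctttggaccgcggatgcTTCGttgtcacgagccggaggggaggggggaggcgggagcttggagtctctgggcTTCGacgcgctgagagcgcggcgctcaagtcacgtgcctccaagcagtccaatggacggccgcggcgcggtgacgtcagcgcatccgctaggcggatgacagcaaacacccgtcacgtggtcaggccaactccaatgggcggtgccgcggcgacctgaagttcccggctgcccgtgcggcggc
Rogdi start at the Glyr1 finish, minus strand, chr16:5013504-5013803: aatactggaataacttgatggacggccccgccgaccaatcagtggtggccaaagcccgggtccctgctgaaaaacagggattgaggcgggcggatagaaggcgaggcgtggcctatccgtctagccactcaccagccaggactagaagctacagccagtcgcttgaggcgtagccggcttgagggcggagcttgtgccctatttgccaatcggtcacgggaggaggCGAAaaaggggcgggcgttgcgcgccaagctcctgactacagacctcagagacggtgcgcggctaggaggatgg
Scarf2 start, plus strand, chr16:17797032-17797331: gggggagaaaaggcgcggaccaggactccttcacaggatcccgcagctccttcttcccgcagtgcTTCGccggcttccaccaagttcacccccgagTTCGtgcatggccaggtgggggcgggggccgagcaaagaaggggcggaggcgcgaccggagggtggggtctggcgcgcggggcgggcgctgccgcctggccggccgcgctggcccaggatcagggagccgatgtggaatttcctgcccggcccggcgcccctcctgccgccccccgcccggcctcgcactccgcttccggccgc

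The motif was present 6 times in the Mtor window and 0 times in the Exosc10 window, and each lay beside a peak of both replicates. It was found 0 times at Pigs, 1 time at Unc119, 3 times at Glyr1, 1 time at Rogdi and 2 times at Scarf2. A start window lay within 1 kb of the start end for 333 of the 357 stranded members, and 203 of these windows (61.0%) held the motif. The share was 62.0% of 5725 windows of long genes called at the start alone, 41.4% of 3361 windows of genes called at neither end, and 44.7% of all 32851 windows of the same length. The members' start windows thus held TTCG about as often as those of genes with a peak at the start alone. Start windows of neighbours at a called finish end held it in 85 of 161 cases (52.8%). At a finish end that was not called, 43.7% of 119 held it. The 161 windows outnumber the 131 called finish ends beside a neighbour's start, so they are not 1 per end. CpG number ran the same way. The median was 23 per window for members, 24 for genes called at the start alone and 5 for genes called at neither end. In the neighbours' windows the median was 21 at a called finish end and 7 at one not called. Most summits lay outside the printed windows. At Mtor, Exosc10, Pigs, Rogdi and Scarf2 they were past the downstream edge in both replicates. Their distances after the start ran from 98 bp (Scarf2, replicate 2) to 180 bp (Exosc10, replicate 2). At Glyr1 they lay before the window, at -444 and -736 bp from the start. Only the Unc119 summit of replicate 2, at 48 bp, lay inside its window. A match or its lack says only which letters were in these windows, and not which lay at the summits.

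Among the 11035 long genes of known strand, 6407 (58.1%) were called at the start and 525 (4.76%) at the finish, where called means a summit of both replicates within 1 kb. Both ends were called in 357 (3.24%), the start alone in 6050, the finish alone in 168 and neither in 4460. The finish call is therefore the rarer condition for membership. The RefSeq start windows placed no member's own start within 1 kb of its finish end (0 of 357), and 333 of 357 near the start end. The same windows decided which end was the finish. This count therefore does not show that further starts were absent at the finish.

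What lay beside the finish end went with how often it was called. A finish end within 1 kb of another coding gene's start was called in 131 of 307 cases (42.7%, exact 95% Clopper-Pearson interval 37.1% to 48.4%). Beside another coding gene's finish and no start, 87 of 901 were called (9.66%, interval 7.81% to 11.8%). With no other gene end within 1 kb, 249 of 9315 were called (2.67%, interval 2.36% to 3.02%). These intervals cover counting error only, and genes are not independent replicates. Finish ends beside a noncoding gene end were called in 20 of 302 cases (6.62%), and those beside a coding gene of unknown strand in 38 of 210 (18.1%). The order of neighbour start, neighbour finish and no other gene end was also found in each list by itself: 59.6%, 28.6% and 10.99% with replicate 1 alone, and 45.3%, 10.2% and 2.89% with replicate 2 alone. Over all stranded long genes, replicate 1 alone had a summit at 14.5% of finish ends and 66.7% of start ends, and replicate 2 alone at 5.07% and 58.7%. Start ends with no other gene end nearby were called far more often than such finish ends, in 4310 of 8201 cases (52.6%).

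**Figure D1:**
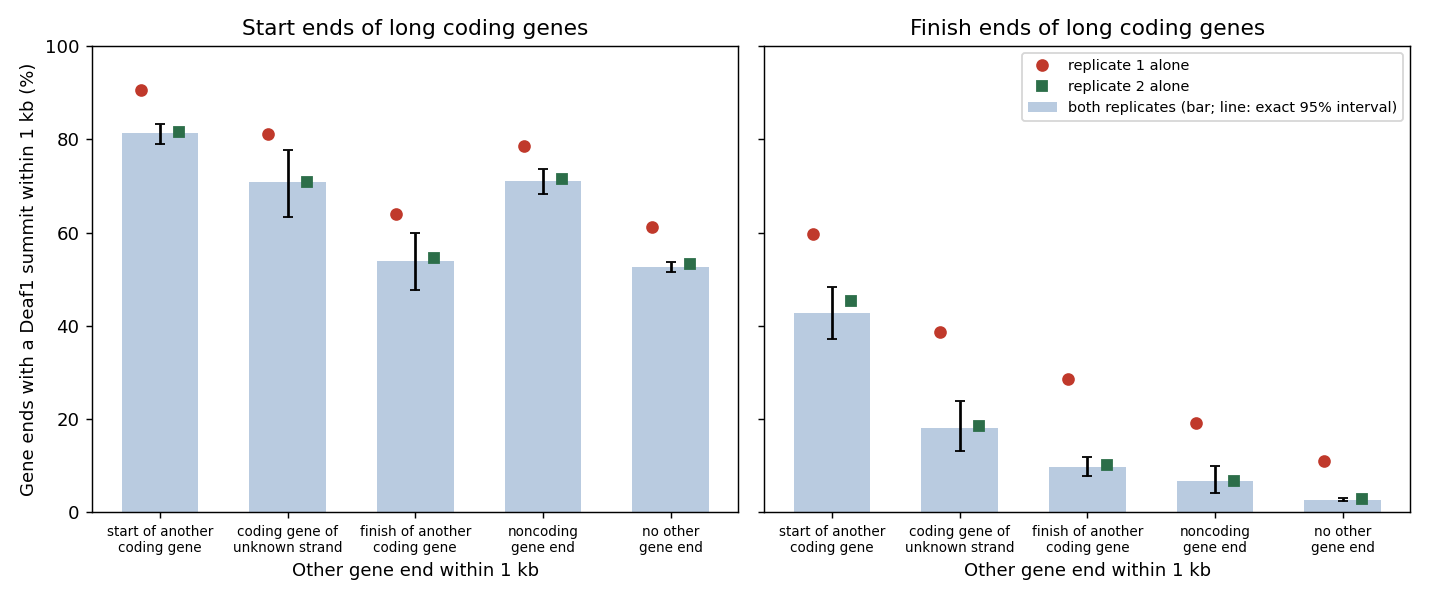
Percent of start ends (left) and finish ends (right) of long coding genes of known strand that had a Deaf1 summit within 1 kb, by what other gene end lay within 1 kb; bars give both replicates with exact 95% intervals, circles replicate 1 alone and squares replicate 2 alone. Finish ends fall from 42.7% beside another coding gene's start to 2.67% with no other gene end, while start ends with no other gene end stand at 52.6%.

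Many members nonetheless had a finish end away from other genes. Of the 357 stranded members, the finish end had no other gene end within 1 kb in 175 and lay beside a noncoding gene end alone in 12. It lay beside another coding gene's start in 85, beside a coding gene's finish and no start in 55, and beside a coding gene of unknown strand in 30. With no other gene end at the finish, the finish was called in 175 of 5273 genes whose start was called (3.32%) and in 74 of 4042 whose start was not (1.83%).

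Counting both ends of all 443 members, 194 (43.8%) had no other coding gene end within 1 kb of either end, 193 (43.6%) had 1 at a single end and 56 (12.6%) had 1 at both. The 194 made up 1.86% of the 10435 long genes so placed (interval 1.61% to 2.14%), the 193 made up 6.34% of 3043 (interval 5.50% to 7.27%), and the 56 made up 13.7% of 409 (interval 10.51% to 17.4%). Members with neither end shared were longer, with a median span of 32.1 kb, beside 20.2 kb with 1 end shared and 18.5 kb with both. This is not particular to members. Over all stranded long genes, a coding neighbour at the finish also became rarer with span. It was found at 17.3% of finish ends from 10 to 20 kb and 6.81% at 100 kb or more. The weaker end of a gene, taken as the lowest fold over both ends and replicates, had a median of 6.07 in the first class, 6.74 in the next and 8.15 where both ends were shared. Fold enrichment, the summit signal divided by the background that the caller estimated, was taken for each peak as the authors gave it and is compared within a list. Over all 886 ends the median fold was 14.7 in replicate 1 and 11.4 in replicate 2 where another coding gene end lay within 1 kb, and 13.1 and 10.2 where none did, which is a ratio of 1.12 and 1.11. This value pools starts and finishes, and the difference was not alike in them. At finish ends the medians were 13.1 and 10.4 with a coding neighbour and 9.58 and 6.45 without, while at start ends they were 17.8 and 16.8 with and 16.6 and 16.7 without. At ends of unknown strand the order was turned, with 12.8 and 10.6 beside a coding neighbour and 13.7 and 11.1 without.

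Within a member, the peak at the finish was usually lower than the peak at the start. The median fold at the start was 17.2 in replicate 1 and 16.7 in replicate 2, and at the finish it was 10.9 and 7.21. The median ratio of finish to start fold was 0.673 in replicate 1 and 0.520 in replicate 2. The finish was lower in both replicates in 232 of 357 genes (65.0%), higher in both in 70 (19.6%) and mixed in 55. Where the finish had no other gene end nearby, it was lower in both replicates in 135 of 175 genes (77.1%), and the median ratios were 0.552 and 0.416. Where it lay beside another coding gene's start, it was lower in 37 of 85 and higher in 31, with median ratios of 0.958 and 0.869. Finish ends beside another gene's finish resembled the lone ends more than those beside a start, with 40 of 55 lower and median ratios of 0.646 and 0.513. The start folds of these sets were alike, with medians of 16.4 and 17.1 in the genes whose finish lay beside a start and 17.2 and 16.7 in those with a lone finish. The members' start folds were also close to those of the 6050 genes called at the start alone, which had medians of 16.9 and 16.2.

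**Figure D2:**
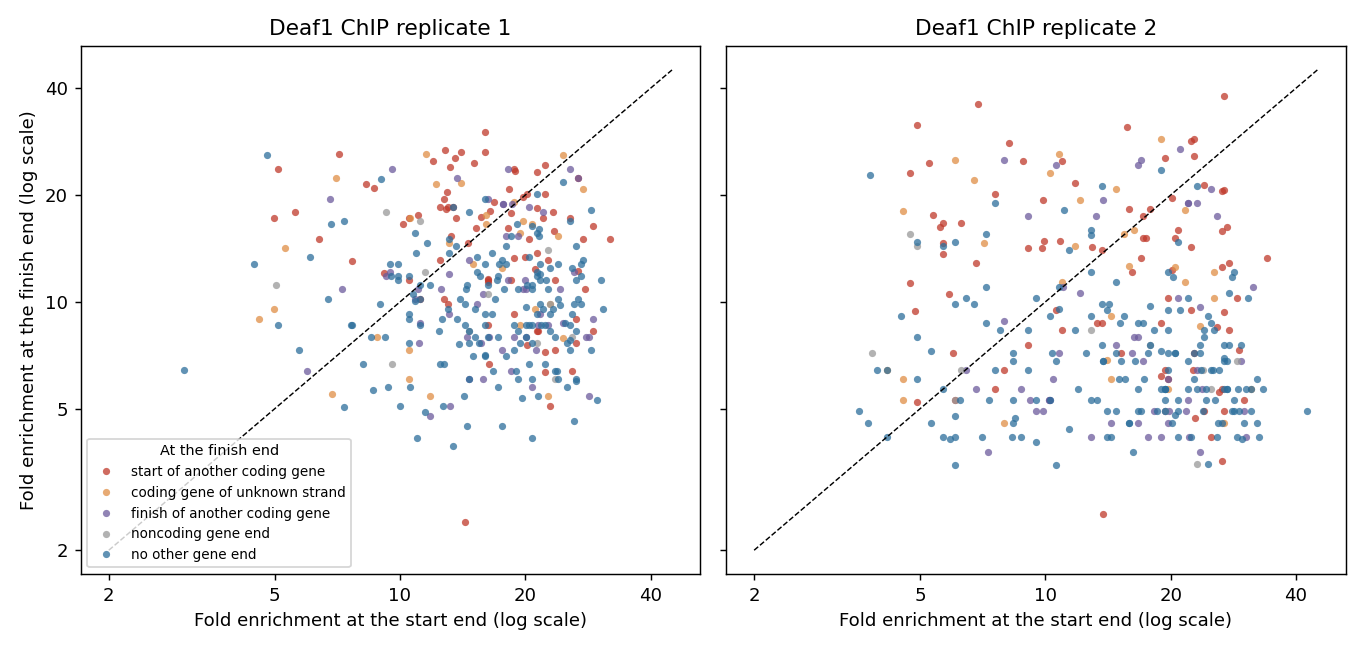
Fold enrichment of the highest peak at the start end (horizontal, log scale) and at the finish end (vertical, log scale) of the 357 members of known strand, for each replicate; each point is a gene, coloured by what lies at its finish end, and the dashed line marks equal folds. Most points with no other gene end at the finish lie below the line (135 of 175 in both replicates), while those beside another coding gene's start spread on both sides (37 lower and 31 higher in both).

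The peaks at lone finish ends were also narrower and placed otherwise than those at starts. At start ends the median peak was 732 bp wide in replicate 1 and 526 bp in replicate 2, with its summit 134 and 138 bp inside the gene. At lone finish ends the median width was 389 and 204 bp, and the summit lay a median of 498 and 491 bp inside. The summit was inside the gene in both replicates at 136 of these 175 ends (77.7%). At finish ends beside another coding gene's start the widths were 604 and 422 bp and the summits lay a median of 485 and 514 bp outside the member. They were outside in both replicates at 61 of 85 such ends (71.8%). The summit pileup, the number of fragments covering the summit as recovered from the deposited fold and p, had a median of 62 and 49 at starts, 57 and 38 at finish ends beside a start, and 29 and 16 at lone finish ends. A pileup of that last size rests on few fragments, so single folds at lone finish ends are less precise than at starts.

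**Figure D3:**
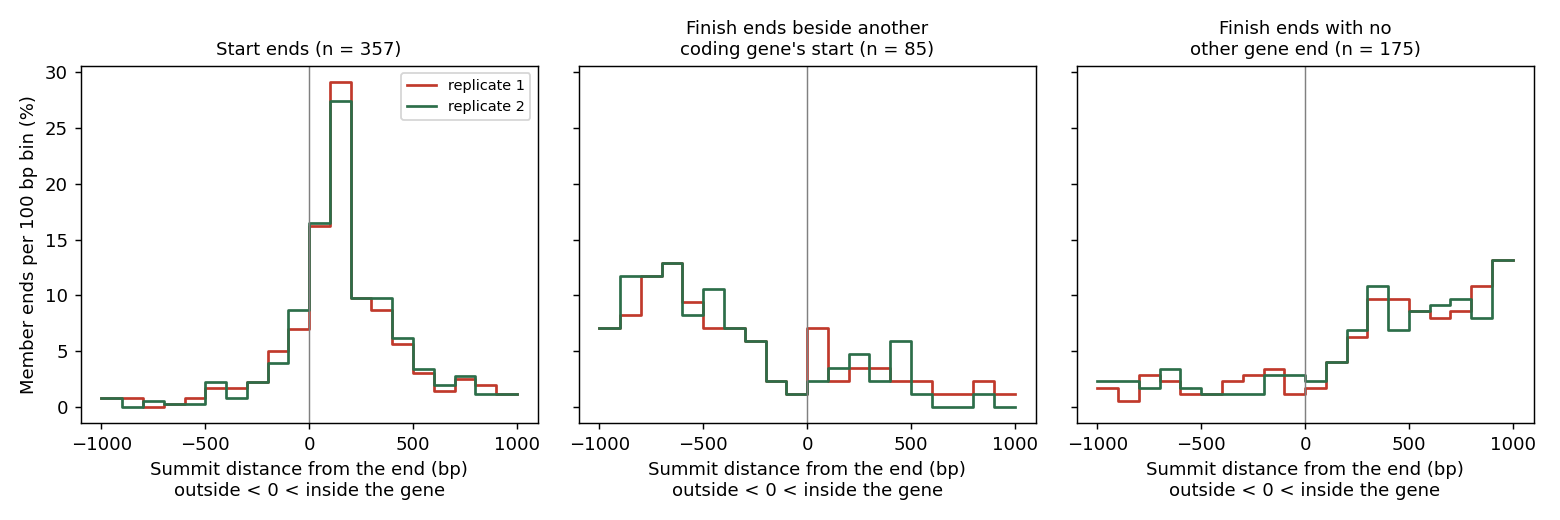
Share of member ends per 100 bp bin of summit distance from the gene end, with negative distances outside the gene and positive ones inside, for start ends (n = 357), finish ends beside another coding gene's start (n = 85) and finish ends with no other gene end (n = 175), with 1 line per replicate. Summits at starts gather 134 and 138 bp inside at the median, those beside a neighbour's start lie mostly outside, and those at lone finish ends spread over the inner side with no gathering at the end itself.

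Local background above the lowest level of its list was found at 41.2% and 32.2% of start ends, 43.5% and 44.7% of finish ends beside a start, and at 21 and 17 of the 175 lone finish ends. Over all peaks these shares were 21.4% and 24.97%. The background is the divisor of the fold, and its part in the differences between ends was not tested. At 703 of the 886 member ends the summits of the replicates lay within 100 bp of each other. The highest peaks of the replicates did not overlap at 49 ends (5.53%), among them 12 of the 55 stranded finish ends beside another gene's finish (21.8%).

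Windows of 2 kb were set at steps across finish ends, a choice made after the data were seen. For the 9315 finish ends with no other gene end within 1 kb, summits of both replicates lay in 2.67% of windows centred on the end, beside 4.18% centred 2 kb inside, 3.50% centred 4 kb inside, 4.20% centred 2 kb outside and 4.78% centred 4 kb outside. By summits of both replicates the end was thus the lowest of these 5 windows. The stepped windows were not cleared of other gene ends. With replicate 2 alone the end was also lowest, at 2.89% beside 3.86% to 5.11%. With replicate 1 alone the end had 10.99%, beside 9.55% at 2 kb and 10.67% at 4 kb outside. Inside the gene, replicate 1 had 14.6% at 2 kb and 12.4% at 4 kb. A narrower set was formed by 5816 finish ends with no other gene end within 6 kb. There, summits of both replicates lay in 1.98% of windows centred on the end, beside 3.06% centred 2 kb inside and 3.04% centred 4 kb inside. Outside the gene the shares were 0.774% at 2 kb and 0.825% at 4 kb. With the start called (3124 genes), 2.43% had a summit at the end, beside 3.94% at 2 kb and 4.45% at 4 kb inside and 0.992% at 2 kb outside. In both 6 kb sets the share at the end lay between those inside and outside the gene. In the 1 kb set this was so with replicate 1 alone, but not with replicate 2 alone or with both.

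Members held further peaks between their ends, as did genes called at the finish alone. Summits more than 1 kb inside both ends numbered a median of 4 in replicate 1 and 1 in replicate 2 for the 357 stranded members, beside 1 and 0 for genes called at the start alone and 3 and 1 for the 168 called at the finish alone. At least 1 such summit was found in 88.8% and 60.2% of members, beside 59.9% and 32.6% of genes called at the start alone and 80.4% and 58.3% of those called at the finish alone. The median span was 22.9 kb in members, 37.7 kb with the start alone and 21.1 kb with the finish alone. Per 10 kb of span the medians were 1.696 and 0.339 in members, 0.165 and 0 in genes called at the start alone and 1.20 and 0.289 in genes called at the finish alone. Among genes with a called start and a lone finish, the 175 with a called finish had a median of 5 and 1 inner summits and the 5098 without had 1 and 0.

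Shorter genes were members more often. Of genes from 10 to 20 kb, 190 (4.86%) were members, of those from 20 to 50 kb 148 (2.94%), of those from 50 to 100 kb 68 (2.70%), and of those of 100 kb or more 37 (1.53%). Start calls ran the other way, from 51.5% in the shortest to 64.4% in the longest class, while lone finish ends were called in 3.73% and 1.42% of these classes. By chromosome, the share of long genes that were members was highest on chromosome 15 (37 of 516, 7.17%) and lowest on X (2 of 567, 0.353%). Background was raised at 55.4% of the member ends on chromosome 15 in replicate 1 and at 36.5% in replicate 2, and its part in the count there was not tested. Chromosome 17 had 35 members (5.71%), chromosome 19 had 24 (5.47%), and chromosome 1 had 9 of 926 (0.972%).

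Among members with neither end shared, Scarf2, a scavenger receptor gene on chromosome 16 (17797282 to 17808294), had the highest weaker end. Its start had folds of 21.4 in replicate 1 and 23.1 in replicate 2, with pileups of 66 (exact Poisson interval 51.0 to 84.0) and 60 fragments (45.8 to 77.2). Its finish had folds of 20.1 and 21.2, with pileups of 62 (47.5 to 79.5) and 55 (41.4 to 71.6). The intervals of the start and finish pileups overlapped in each replicate. This overlap is no test of start against finish, because Scarf2 was chosen for its high weaker end. The finish summits lay 706 and 837 bp inside the gene. Hhipl1 on chromosome 12 (108305968 to 108328300), a relative of the hedgehog-interacting protein gene, had 24.6 and 18.96 at the start and 21.7 and 23.5 at the finish. Slc16a3, which encodes the lactate exporter of glycolytic muscle, had 21.5 and 20.9 at the start and 15.3 and 14.8 at the finish. The Slc16a3 finish summits lay 223 and 188 bp outside the gene, where the span of Csnk1d overlaps it. At the potassium channel gene Kcnk12 the finish exceeded the start, with 19.5 and 21.2 over 16.0 and 13.7.

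Of members with unknown strand in this class, Wnt10a, a Wnt ligand gene, had 19.2 and 17.4 at the lower end and 20.8 and 17.8 at the higher end. Ank1, which encodes an ankyrin that ties membrane proteins to the cytoskeleton, had 16.6 and 13.7 at the lower end and 20.1 and 20.5 at the higher. The adrenergic receptor gene Adra1d had 13.1 and 15.9 at the lower end and 23.3 and 20.1 at the higher. The higher ends of Ank1 and Adra1d lay within 1 kb of a noncoding gene end.

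Alk, a receptor tyrosine kinase gene, was the longest member at 735.7 kb (chromosome 17, 71868988 to 72604702). Its start had folds of 13.4 and 12.9 and its finish 18.5 and 15.9. Only 3 summits in replicate 1 and 0 in replicate 2 lay between the 1 kb windows at its ends. Slit3, an axon guidance ligand gene of 587.1 kb, had 8.94 and 10.2 at the start and 9.90 and 5.31 at the finish. Camkmt, a calmodulin methyltransferase gene of 368.0 kb, had 21.4 and 11.4 at a start shared with Prepl and 5.45 and 4.37 at its finish. The Camkmt finish peaks rested on pileups of 19 (interval 11.4 to 29.7) and 11 (5.49 to 19.7) fragments.

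With 1 end shared, Camk2g, the gene of a calcium/calmodulin-dependent kinase subunit, had the highest weaker end, with 26.2 and 32.6 at its lower end beside the start of Ndst2 and 23.6 and 27.7 at its higher end. Gm960 had 22.3 and 19.3 at the start and 20.1 and 25.4 at its finish beside the Rce1 start. Ifnar2, a type I interferon receptor gene, had 24.6 and 18.96 at the start and 25.9 and 28.8 at the finish beside Il10rb. Podxl2, a sialomucin gene, had 18.8 and 22.8 at the start and 23.6 and 28.8 at its finish beside the Abtb1 start. At Mllt6 the start had 18.3 and 26.9 and the finish, beside the Cisd3 start, 20.8 and 20.7. Pitx3, a homeobox gene, had 18.8 and 21.6 at the start and 19.2 and 18.2 at the finish beside Elovl3, and Ssbp4 had 22.0 and 25.03 at the start and 17.9 and 20.9 at the finish beside the Isyna1 finish. These genes were named for their high weaker ends, so folds above the members' median weaker end of 6.45 follow from that choice.

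Mtor, the kinase gene of the growth-control complex mTORC1, belonged to the same class (chromosome 4, 148448582 to 148557685). Its finish peak lay 913 and 914 bp outside Mtor and 179 and 180 bp past the Exosc10 start, whose window is printed above. The pileups were 66 (interval 51.0 to 84.0) and 45 (32.8 to 60.2) fragments there, and 64 (49.3 to 81.7) and 59 (44.9 to 76.1) at the Mtor start. The Mtor start background was raised, at 4.03 and 2.50 fragments, while the lowest in the lists were 2.13 and 1.64. Between the ends Mtor held 13 summits in replicate 1 and 1 in replicate 2.

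With both ends shared, Ano8, an anoctamin gene, led with 26.2 and 27.3 at its lower end beside the Dda1 finish and 23.9 and 27.3 at its higher end beside the Gtpbp3 start. Inca1 had 26.8 and 22.8 at a start it shares with Kif1c and 22.3 and 25.8 at its finish beside the Camta2 start. Pigs, a gene of the enzyme that attaches GPI anchors, had 22.3 and 22.4 at a start beside the Aldoc finish and 24.3 and 28.4 at its finish, where the summits lay 78 and 48 bp past the Unc119 start. Glyr1, which encodes a nucleosome-binding protein, had 20.2 and 20.1 at a start shared with Ubn1 and 20.2 and 19.6 at its finish, 118 and 104 bp past the Rogdi start. Coq8b, a gene of coenzyme Q synthesis, had 24.9 and 19.7 at its lower end beside the Itpkc start and 20.4 and 23.5 at its higher end beside the Numbl start. Dcst2 had 26.8 and 25.8 at a start shared with Adam15 and Dcst1, and 22.3 and 17.4 at its finish beside the Zbtb7b finish.

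Some members were called from the same peak. In replicate 1, 18 peaks served 2 or more member ends and in replicate 2, 20 did, with 5 ends at most. The peak with 5 ends lay at the shared higher end of the protocadherin genes Pcdhga3, Pcdhga6, Pcdhgb7, Pcdhgc3 and Pcdhgc4, with folds of 7.02 and 6.45. Cers1, a ceramide synthase gene, and Gdf1, a growth factor gene, have nearly the same span and shared the peaks at both ends, with 17.7 and 22.0 at the start and 18.8 and 18.96 at the finish. That finish peak was also the one at the finish of Upf1, an RNA helicase gene of nonsense-mediated decay, whose own start had 18.6 and 23.1. Such genes are not separate observations.

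**Figure D4:**
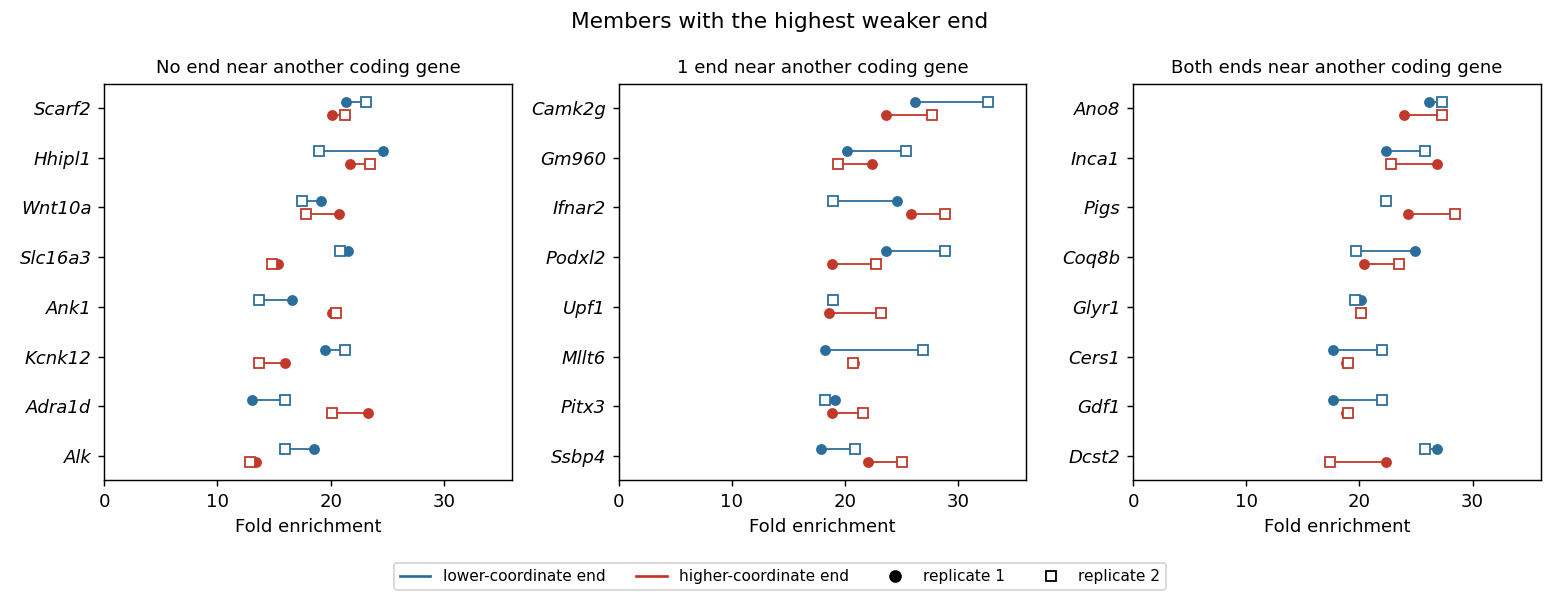
Fold enrichment (horizontal) at the lower-coordinate end (blue) and the higher-coordinate end (red) of the 8 members with the highest weaker end in each class, with circles for replicate 1 and squares for replicate 2. The weaker end reaches 20.1 with neither end shared (Scarf2), 23.6 with 1 end shared (Camk2g) and 23.9 with both shared (Ano8).

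A small set of members had a far higher peak at the finish than at the start. Mtf1, a metal-responsive transcription factor gene, had 16.0 and 6.90 at the start and 30.0 and 35.98 at its finish, beside the starts of 1110065P20Rik and Yrdc. Shc1, an adaptor gene of growth factor receptors, had 8.30 and 5.25 at the start and 21.5 and 24.7 at its finish beside the Pygo2 start. Atat1, a tubulin acetyltransferase gene, had 11.6 and 6.07 at the start and 26.2 and 25.03 at its finish beside 2310061I04Rik. The predicted gene LOC115488765 had 5.11 and 4.93 at the start and 23.7 and 31.4 at its finish beside the Rhoq start. In this set, Ntng2 was the exception with no other gene end at the finish: this netrin family gene had 4.79 and 3.79 at the start, from 14 and 9 fragments, and 25.9 and 22.8 at the finish, from 80 and 59. Its finish summits lay 57 and 55 bp inside the gene.

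At the other extreme, 5 genes had the smallest finish relative to start. Eif3b, a translation initiation factor gene, had 25.5 and 25.8 at the start and 7.34 and 4.17 at a lone finish. B4galt5, a galactosyltransferase gene, had 26.2 and 28.8 at the start and 9.90 and 4.17 at a lone finish, 991 and 962 bp inside. Ppp1r9b, the spinophilin gene, had 23.0 and 23.1 at the start and 9.90 and 3.51 at its finish, and Enoph1 had 23.9 and 24.7 at the start and 6.39 and 3.51 at its finish. Pgap6 had 22.3 and 26.5 at the start and 6.34 and 3.58 at its finish beside the Mrpl28 start. Of the 5, Pgap6 alone had a finish beside another coding gene's start.

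Gene lists were drawn up by function, with earlier results of these data known, and 634 of their 683 entries were long genes. Of these, 34 were members (5.36%), beside the 3.19% of all long genes, and this is given as a description. The lists differed from all long genes in start calls, which 58.1% of stranded long genes had. Start calls ran up to 91.3% of stranded genes in the autophagy list, and only muscle structure, at 33.3%, lay below 58.1%. The 3.19% is therefore not a like background. The list of RNA processing and nuclear export had 7 of 68 and that of chromatin regulators 8 of 90. Mitochondrial function had 5 of 59, autophagy, lysosome and mTORC1 3 of 54, ubiquitin ligases and deubiquitinases 3 of 64 and membrane traffic 3 of 76. Muscle structure and contraction had 2 of 44, myogenic factors and fusion 1 of 24, signalling kinases and phosphatases 1 of 80 and DNA repair and replication 1 of 75. The number of members per list was thus 8 or fewer in each of the 10 lists.

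The members of RNA processing included Upf1, given above, and Xpot, the tRNA exporter gene, with 21.3 and 15.7 at the start and 23.2 and 31.1 at its finish beside the Tbk1 start. Sf3b2, a splicing factor gene, had 12.8 and 8.18 at the start and 26.8 and 28.1 at its finish beside the Pacs1 start. Snrnp70, of the U1 particle of splicing, had 23.6 and 17.1 at the start and 7.98 and 8.72 at a lone finish. Cpsf1, a subunit gene of the complex that cleaves messenger RNA ends, had 9.90 and 7.21 at its lower end beside Adck5 and 8.54 and 10.7 at its higher end. The high finish peaks of Xpot and Sf3b2 lay 530 and 736 bp, and 684 and 690 bp, outside the genes.

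Of the chromatin regulators, 4 are described, and each had its higher folds at the start or, with strand unknown, at the lower end. Nsd3, a histone methyltransferase gene, had 19.2 and 19.7 at its lower end and 12.9 and 15.2 at its higher end. Chd8, a remodelling enzyme gene, had 16.2 and 19.7 at the start and 11.6 and 10.2 at its finish beside the Supt16 start. Kdm6b, a histone demethylase gene, had 24.3 and 24.3 at its lower end and 7.35 and 6.07 at its higher end. Ehmt2, another methyltransferase gene, had 23.6 and 26.5 at the start and 11.5 and 5.69 at its finish beside the Slc44a4 start.

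Among mitochondrial genes, Polrmt, the mitochondrial RNA polymerase gene, had 6.79 and 10.6 at the start and 19.5 and 24.3 at its finish. That finish peak was shared with the finish of Hcn2, itself a member, and lay 375 and 127 bp outside Polrmt. Timm44, a protein import gene, had 4.99 and 4.74 at the start and 17.2 and 23.1 at its finish beside the Ctxn1 start. Lonp1, a protease gene of the matrix, had 16.1 and 23.5 at the start and 16.6 and 8.57 at its finish beside Rpl36. Esrra, a nuclear receptor gene of energy metabolism, had 29.1 and 26.2 at the start and 8.30 and 5.58 at its finish beside Prdx5 and Trmt112. Uqcrc1, of respiratory complex III, had 19.2 and 16.7 at the start and 8.30 and 4.93 at a lone finish.

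In the autophagy and mTORC1 list, besides Mtor, Tfeb and Tsc2 were members. Tfeb, the transcription factor gene of lysosomal genes, had 10.2 and 6.83 at a lone finish, where the highest summit lay 931 bp inside in replicate 1 and 46 bp inside in replicate 2. Tsc2, which encodes an inhibitor of mTORC1, had 13.2 and 9.19 at a start shared with Nthl1 and 5.11 and 5.31 at its finish beside the Pkd1 finish. The Tsc2 finish summits lay 57 bp outside in replicate 1 and 965 bp outside in replicate 2, so the replicates called that end from different places.

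The lists of muscle structure, myogenic factors, signalling and DNA repair gave 2, 1, 1 and 1 members. These were 4.55%, 4.17%, 1.25% and 1.33% of their long genes, beside 3.19% of all long genes. Tcf3, which encodes the E protein partners of myogenic factors, had 20.8 and 22.0 at the start and 11.2 and 10.2 at a lone finish. Csnk1d, a casein kinase gene, had 7.79 and 10.2 at its lower end and 21.1 and 21.6 at its higher end. Mcm2, a subunit gene of the replicative helicase, had 8.17 and 4.17 at the start and 6.70 and 6.45 at the finish. Camk2g, given above, was also a member of the muscle structure list.

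Members from the ubiquitin and membrane traffic lists mostly had lower finish peaks. Smurf1, a ubiquitin ligase gene, had 25.5 and 17.7 at the start and 8.62 and 7.21 at a lone finish. Usp19, a deubiquitinase gene, had 13.0 and 16.7 at a start beside the Lamb2 finish and 9.58 and 5.69 at its finish. Usp10, another deubiquitinase gene, had 5.10 and 4.51 at the start and 8.62 and 9.10 at the finish. The order at Usp10 depended on the scale: its start pileups were 74 and 67 fragments over backgrounds of 13.7 and 14.1, and its finish pileups were 26 and 23 over the lowest backgrounds. Vti1a, a SNARE gene, had 20.4 and 13.7 at a start shared with Zdhhc6 and 8.62 and 6.83 at its finish. Dnm2, the dynamin gene of membrane fission, had 17.6 and 18.96 at the start and 7.34 and 4.17 at its finish beside the Tmed1 finish. Golga4, a golgin gene, had 23.6 and 17.7 at its lower end and 3.70 and 5.48 at its higher end.

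The limits of the rule fell between genes that differed little. Kif19a and Dock3 were members with a deciding summit 1000 bp from an end, while Cacna1g at 1001 bp and Obsl1 at 1003 bp were not. Ptbp1, a splicing regulator gene spanning 10004 bp, and Gtf3c6 at 10012 bp were members, while Yif1b at 9939 bp and Tapbp at 9813 bp were too short.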

How the data were processed

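Deaf1 ChIP-seq peaks of 2 samples were analysed, and the 2 input samples entered no comparison. BWA, MACS2 and the build mm10 are named in the submitters' processing notes, and their versions and settings, like the control used in calling, are not given in the sources used. Each replicate has its own peak list from the authors, called without pooling. The fold enrichment ratio of each peak is the authors' deposited value. Each peak's −log10 p and −log10 q were likewise deposited by the authors. The authors' score was the −log10 p times 10 without its decimals in 100% of peaks. Start, end and summit positions were deposited and were made 1-based.

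The files give no read depth. Summit pileup and background were recovered with a Poisson model of the fold, after adding 1 to each, and of the p (largest misfit in −log10 p 4.07e-05), and exact 95% intervals of pileups cover counting error only. The steps were tested on simulated data. Gene spans, start windows and strand came from RefSeq tables of GRCm38.p6; start windows gave the strand of 79.5% of long genes, and of none on chromosome 18. All 683 list entries matched a gene, 682 by current symbol.

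Where an end had several summits, the highest fold of each replicate was used. Genes named were the 8 with the highest weaker end in each class, the 3 longest, the 5 highest and 5 lowest ratios of finish to start fold, up to 5 members per list, the 2 genes on either side of each limit, and Mtor. Some genes that this rule names are not reported here. Hcn2, the protocadherin genes and neighbouring genes are named because a peak was shared. The members and gene lists were chosen with earlier results of these data known, and no test was run on the members. Alternatives changed the distance, span, fold and q minimums, list length, kind of overlap, neighbour definition, value compared and replicates used. Python 3.11.15, numpy 2.4.6, pandas 2.3.3 and scipy 1.17.1 were used.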

Additional observations from a re-analysis of the deposited data

How the results depend on the processing

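No paired analysis was possible because the inputs, which carry the same replicate numbers as the ChIP samples, had no peak list here. Overlap of the replicates' peaks, summits left 0-based, and the split of neighbour ends into starts and finishes were chosen after seeing the data. Finish ends were called more often beside a neighbour's start than beside a neighbour's finish in 13 of 13 other settings. The number of members ran from 485 to 1610 over single replicates, the higher with replicate 1 alone, whose list is longer. Members with neither, 1 or both ends shared ran from 215 to 904, 209 to 565 and 61 to 141. The percent of finish ends called ran from 19.04 to 36.8 with a coding neighbour, 3.01 to 11.3 without, 45.3 to 59.6 beside a start and 10.2 to 28.6 beside a finish. The median fold of lone ends ran from 9.58 to 10.2 and the ratio of shared to lone ends from 1.11 to 1.19. A 500 bp window gave 163 members (71, 76 and 16 by class) and a 2 kb window 976 (495, 374 and 107). In the order with, without, start and finish neighbour, the 500 bp window called 7.83%, 1.20%, 20.2% and 3.77% of finish ends, and the 2 kb window 29.9%, 6.45%, 58.0% and 20.1%. The fold ratios, means of both replicates, were 1.04 and 1.05. In the 500 bp window the order of shared and lone ends turned in replicate 2 (1.11 and 0.964). Spans of 20 kb or more left 253 members (129, 99 and 25) and spans of 50 kb or more 105 (65, 34 and 6), by the setting's own construction. At 20 kb the percents were 14.6 with, 2.40 without and 7.33 beside a finish, with a fold ratio of 1.13. At 50 kb they were 10.3, 2.13, 32.7 beside a start and 4.68 beside a finish, with a fold ratio of 1.04 that again turned in replicate 2 (1.12 and 0.962). Any overlap of peak and window gave 22.6%, 3.49%, 52.1% and 12.7% in the first order. A fold of 5 or more gave 15.7% with, 2.04% without and 7.21% beside a finish. A −log10 q of 5 or more gave 2.27% without and a ratio of 1.15, and the shortened replicate 1 list 2.27% and 1.07. A neighbour reach of 5 kb gave classes of 104 with neither and 131 with both, and 9.23%, 2.44%, 14.8% and 5.12% of finish ends. Counting noncoding ends as neighbours gave 16.0% with. The ratio of shared to lone ends was 1.15 without chromosome 15, 1.17 with overlapping peaks, 1.32 for −log10 q and 1.21 for pileup, so its size depends on the measure. Narrower windows and longer spans can only lower the number of members, by construction. The cause of the other changes was not tested. Summit pileups at lone finish ends limit the precision there.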
